A study of Mus musculus with 405 samples.

Results

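Triazine herbicides are weed killers built on a nitrogen-rich 6-membered ring. In plants they occupy the site on photosystem II where plastoquinone normally binds, which stops electron flow through the thylakoid membrane. Animals have no photosystem II. In mammals the class is known from work on the brain and pituitary axis that releases luteinizing hormone, on catecholamine systems and on steroid-producing cells, and chlorinated members have been studied as inhibitors of cyclic nucleotide breakdown. The libraries described here were those of the screen whose label began with the name of such a compound: ametryn, atrazine, cyanazine, hexazinone, metribuzin, prometon, prometryn and propazine. They made up 8 of the 344 libraries of chemicals in the screen, 1 library per compound, beside 49 vehicle libraries, and were selected by their names, with no measured value in the rule.

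All libraries came from primary cultures of cortical neurons, prepared at embryonic day 15 from C57BL/6J dams crossed to CAST/EiJ males, so that every culture carried the same hybrid background. A nucleoside analogue that limits dividing cells was added on day 3 in vitro to all cultures, treated and vehicle alike. On day 7 in vitro the cultures received a compound at 10 μM or vehicle for 24 h, and polyadenylated RNA was sequenced. The 49 vehicle libraries were the reference, and 249 other chemicals given at 10 μM served as a second one. As there was a single culture well per triazine, a value for 1 compound has no replicate of its own. Tests on 1 compound therefore assumed that the lone library varied as the vehicle libraries did. In tests of the class the 8 compounds stood as 8 samples, and p-values measured the spread between compounds and between vehicle libraries.

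The compounds differ by named changes. Atrazine, propazine, ametryn, prometryn, prometon and cyanazine are symmetrical triazines with a pair of alkylamino groups. Atrazine and propazine carry chlorine on the ring, ametryn and prometryn a methylthio group in its place, and prometon a methoxy group. Atrazine and ametryn have 1 ethylamino and 1 isopropylamino group, whereas propazine, prometryn and prometon have isopropylamino groups on both sides. Cyanazine is atrazine with a nitrile on its isopropyl group. Hexazinone is a triazine dione with a cyclohexyl group, and metribuzin is an asymmetrical triazinone with methylthio, amino and tert-butyl groups.

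Expression values were log-scale deviations from each gene's median over the screen, so that they gave differences between libraries but no levels. Differences are stated on the log2 scale relative to the mean of the 49 vehicle libraries. Levels, where given, are counts scaled to the library total (CPM) in 4 vehicle libraries of the study that were deposited as counts and could not be matched to single samples, with totals of 2778615 to 7833440 counts. In those 4 libraries the 12 neuron markers summed to 9139 to 10200 CPM, the 12 markers of astrocytes and radial glia to 900.1 to 1840 CPM, the 12 microglia markers to 34.7 to 48.7 CPM and the 10 endothelium markers to 6.51 to 12.4 CPM, with 2 of the 10 at 0. One vehicle library of the screen stood apart from the rest, with 18.05% of its genes outside the range of the other 48; the next highest value among vehicle libraries was 6.77%. Without it the class still had 0 genes called, and the calls in single compounds described below all remained, with 54 in place of 46 in all and 2 in place of 0 for atrazine.

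The first question was whether the class as a whole departed from vehicle. No gene of 13304 passed the test (limma, Benjamini-Hochberg adjusted p under 0.05; percent called 0%), and the smallest adjusted p was 0.128. At an unadjusted p under 0.05 there were 919 genes (6.91%), of which 411 were higher in triazine libraries. The interval of the class difference was narrow for most genes: for 12987 genes (97.6%) the 95% confidence interval lay within 1 log2 unit on either side of 0, and for 85.8% it lay within a 1.5-fold change either way. The median half-width of the intervals was 0.193. For comparison, the 249 other chemicals at 10 μM, as a group, differed from the same vehicle libraries in 715 genes (5.37%), 257 higher and 458 lower, in a much larger sample.

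By the distance of the whole profile from vehicle, no difference between triazine and vehicle libraries passed the test, and prometon and propazine lay farthest out among the triazines. The root mean square difference from the vehicle mean over all genes ran from 0.351 with cyanazine to 0.443 with prometon, with a median of 0.394 over the 8 compounds and 0.39 over the 49 vehicle libraries (each vehicle library set against the other 48). The difference of these medians was 0.0043 (two-sided permutation test with 100000 resamples, p = 0.676). The share of genes that fell outside the range of the vehicle libraries was 2.13% with cyanazine, 2.81% with metribuzin, 3.02% with ametryn, 4.1% with atrazine, 4.71% with hexazinone, 5.01% with prometryn, 5.99% with propazine and 6.61% with prometon. The same share had a median of 3.72% among vehicle libraries and 4.25% among the libraries of the other chemicals at 10 μM. By root mean square, prometon and propazine (0.436) exceeded 48 of the 49 vehicle libraries, the exception being the one that stood apart, and lay at percentiles 95.04 and 91.22 of the other chemicals, whereas cyanazine lay at percentile 4.58.

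**Figure D1:**
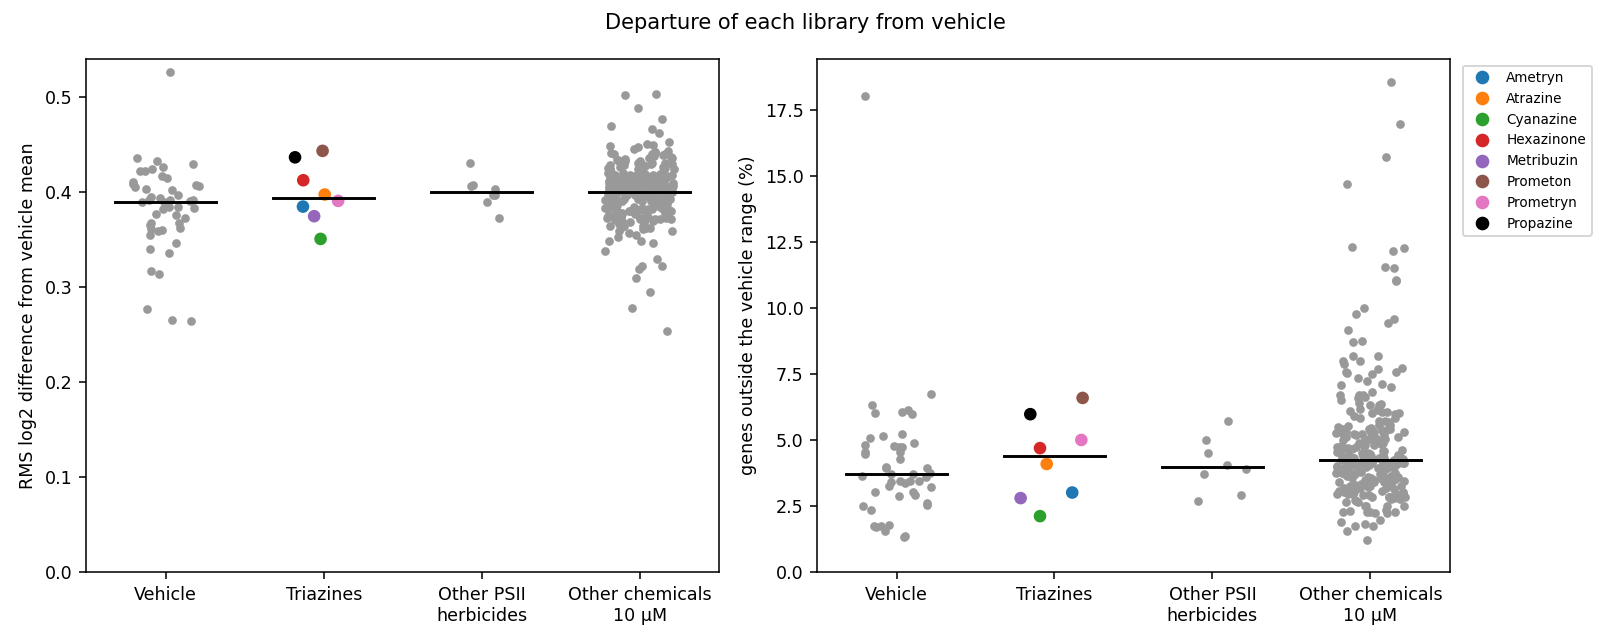
Departure of single libraries from vehicle. Each point is 1 library, coloured by compound for the triazines; the left panel gives the root mean square log2 difference from the vehicle mean over 13304 genes and the right panel the percentage of genes outside the range of the vehicle libraries, with bars at the group medians (PSII, photosystem II). The 8 triazines, at 0.351 to 0.443 and 2.13% to 6.61%, overlap the vehicle libraries and the other chemicals, with prometon and propazine highest among the triazines.

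Among genes that did not pass the test, 10 are named because all 8 triazine libraries lay on one side of the vehicle median and their p was smallest (5 in each direction). In all, 107 genes (0.804%) had all 8 libraries above the vehicle median and 115 (0.864%) had all 8 below it. Rin1, which encodes a Ras effector that regulates endocytosis and is prominent in forebrain neurons, was 0.57 higher (95% interval 0.34 to 0.81, adjusted p = 0.128). Its values ran from 0.34 with propazine to 1.17 with hexazinone, and 1 of the 8 exceeded the highest vehicle library (0.83). The other chemicals at 10 μM also had more Rin1 than vehicle, by 0.25 (adjusted p = 0.0045), and triazines did not differ from them by the test (0.32, adjusted p = 0.802). Scara3, a scavenger receptor-like protein, was 0.56 higher (0.31 to 0.82), with values from 0.12 with hexazinone to 1.22 with metribuzin. Mybl1, a transcription factor of the Myb family, was 0.61 higher (0.31 to 0.90). Acot2, a mitochondrial acyl-CoA thioesterase, was 0.63 higher (0.31 to 0.95), with its largest values in propazine (1.31) and prometon (1.20). Gadd45g, a growth arrest and DNA damage gene, was 0.52 higher (0.25 to 0.80). These genes were scarce in the counted vehicle libraries, at 3.33 CPM for Acot2 to 9.02 CPM for Gadd45g.

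The other 5 named genes had all 8 libraries below the vehicle median. Calr, the calcium-binding chaperone calreticulin of the endoplasmic reticulum (565.7 ± 185.7 CPM, SD, n = 4), was 0.12 lower (interval -0.19 to -0.06), with values from -0.23 with hexazinone to -0.05 with metribuzin. Hira, a chaperone that deposits histone variants, was 0.29 lower (-0.42 to -0.15). Capn10, a calpain protease, was 0.37 lower (-0.55 to -0.19). Spns1, a lysosomal membrane transporter, was 0.26 lower (-0.40 to -0.12). Akr1e1, an aldo-keto reductase, was 0.53 lower (-0.81 to -0.25), and its lowest value by far was that of prometon (-1.65). Adjusted p was 0.302 to 0.359 for these 5 genes, so none was called.

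Somatostatin (Sst) lay above the vehicle mean with 7 of the 8 compounds and below it with metribuzin. Sst encodes a neuropeptide of cortical inhibitory interneurons whose gene is controlled by cyclic AMP through CREB. It lies on chromosome 16 at 23889667 to 23890930 (mm9) and was abundant in the counted vehicle libraries (264.3 ± 40.14 CPM, SD, n = 4). It is described because it passed the test when the class was limited to compounds of like structure, and it was singled out after its values were seen. Relative to the vehicle mean, Sst was at 0.84 with cyanazine, 0.76 with prometryn, 0.75 with ametryn, 0.60 with propazine, 0.44 with prometon, 0.42 with hexazinone, 0.24 with atrazine and -0.76 with metribuzin. The vehicle libraries ran from -0.67 to 0.47 with a median of 0.02. Cyanazine, prometryn, ametryn and propazine thus lay above every vehicle library, metribuzin lay below every one, and the others lay inside the vehicle range. In the metribuzin library the medians of choroid plexus and ependyma markers (0.73, 5 genes) and of cycling cell markers (0.45, 11 genes) also lay above every vehicle library (highest 0.66 and 0.43), and their part in its Sst value was not tested.

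Over all 8 compounds Sst was 0.41 higher than in vehicle (interval 0.19 to 0.63) and was not called (adjusted p = 0.368). Over the 6 symmetrical triazines with a pair of alkylamino groups it was 0.61 higher (0.40 to 0.81, adjusted p = 0.0034 over all 13304 genes, higher than the vehicle median in 6 of 6 libraries). In that comparison 2 genes were called (0.015%), Sst and Atp5k, and 997 had an unadjusted p under 0.05. Leaving out metribuzin alone, Sst was 0.58 higher (0.39 to 0.77, adjusted p = 0.0018) and was the only gene called. Both of these sets leave out metribuzin, the only compound with Sst below the vehicle mean. Their adjusted p-values take no account of the choice of compounds, so they do not stand as tests of the class. The call with 6 compounds was lost when ametryn (0.58, adjusted p = 0.055) or cyanazine (0.56, adjusted p = 0.052) was also left out. No single compound passed for Sst; adjusted p was 0.476 or more in each.

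Sst was also somewhat higher over the other chemicals at 10 μM than in vehicle, by 0.16 (0.08 to 0.24, adjusted p = 0.0055), and 8.40% of their libraries (22) lay above every vehicle library. Against those chemicals the 6 triazines were 0.45 higher (0.24 to 0.65) and were not called (adjusted p = 0.1003). In 8 other herbicides of photosystem II, Sst ran from -0.42 to 0.43 and differed from vehicle by 0.02 (-0.19 to 0.24).

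Of 11 measured markers of interneurons, Sst alone was called over the 6 compounds. Gad1 and Gad2, which encode the enzymes that make GABA, differed from vehicle by 0.14 (-0.10 to 0.39) and 0.13 (-0.13 to 0.39). Lhx6, a transcription factor of the interneuron lineage to which somatostatin cells belong, differed by -0.00086 (-0.19 to 0.19). Npy, another neuropeptide of interneurons, differed by 0.33 (-0.18 to 0.84) with values from -0.79 with atrazine to 1.36 with ametryn. Across the 49 vehicle libraries Sst correlated with Gad1 at r = 0.62 and with Lhx6 at r = 0.496. With the other measured markers r ran from -0.148 (Calb2) to 0.634 (Dlx1), and was 0.252 with Npy. These are descriptions over libraries that share culture batches and processing. In such cultures more cells of a type and more RNA per cell cannot be told apart. Among the other peptides and CREB-regulated genes, Tac1 differed by 0.48 (-0.06 to 1.02) and Cartpt by 0.59 (-0.0017 to 1.19), and Bdnf (-0.22, -0.63 to 0.19) and Crem (-0.07, -0.41 to 0.27) lay on the other side of 0. None of these was called.

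Atp5k was the only gene that separated the 8 triazines from the other chemicals at 10 μM (1 of 13304 genes, 0.00752%; 782 genes at an unadjusted p under 0.05). Atp5k encodes the small subunit e of mitochondrial ATP synthase and lies on chromosome 5 at 108862263 to 108863467 (mm9). It was 1.58 lower in triazines (adjusted p = 0.0055) than in the other chemicals and 1.54 lower than in vehicle, where it was not called (interval -2.34 to -0.75, adjusted p = 0.337). The values split the compounds. Atp5k was at -4.02 with propazine, -3.54 with both ametryn and atrazine and -1.31 with cyanazine. It was at -0.34 with prometon, -0.06 with prometryn, 0.20 with metribuzin and 0.26 with hexazinone. Values under -3 occurred in 3 of 8 triazines, in 1 of 49 vehicle libraries (2.04%) and in 1.15% of the libraries of the other chemicals (3). Propazine lay below the lowest vehicle library (-3.85).

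The gene was near the lower limit of what these libraries measure: the 4 counted vehicle libraries held 6 to 22 reads of it (2.12 to 7.60 CPM). Ametryn and atrazine, whose library numbers were adjacent, had the same deposited value for Atp5k, and shared a value in 4 genes of 13304. Whether these values mark a lower limit of the scale was not tested, so the difference of 1.58 is not an exact fold change. The comparison called no gene when ametryn (Atp5k -1.30, adjusted p = 0.239), atrazine (-1.30, adjusted p = 0.302) or propazine (-1.23, adjusted p = 0.666) was left out, or when only genes of at least 10 CPM were tested.

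**Figure D2:**
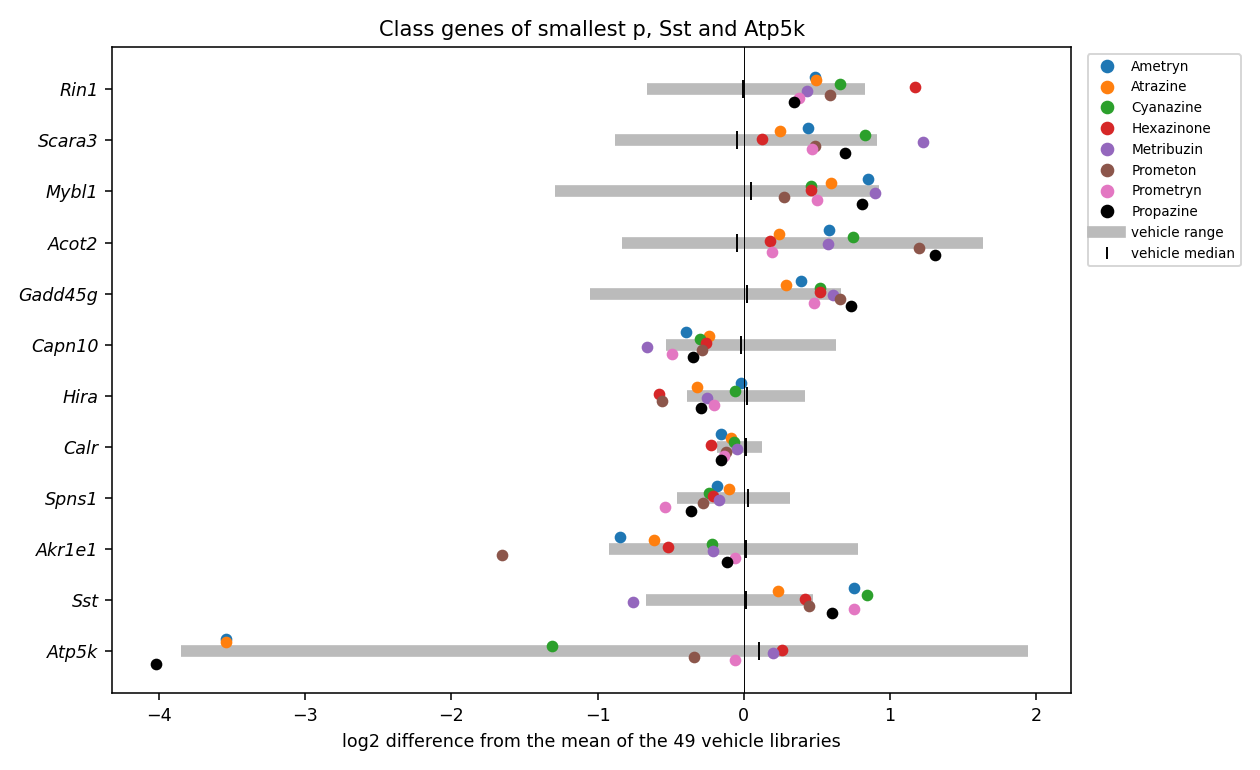
Values of the named genes in each triazine library. The horizontal axis is the log2 difference from the mean of the 49 vehicle libraries; coloured points are the 8 compounds, grey bars span the vehicle libraries and ticks mark their median. The first 10 genes have all 8 points on one side of the vehicle median, Sst has metribuzin at -0.76 and the other compounds at 0.24 to 0.84, and Atp5k has 3 compounds under -3.

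Taken one at a time, the compounds had few genes called. The number called against vehicle was 0 with atrazine (0%), 1 with ametryn (0.00752%), 3 with cyanazine and 3 with metribuzin (0.0225% each), 7 with hexazinone and 7 with prometryn (0.0526% each), 10 with propazine (0.0752%) and 15 with prometon (0.113%). With atrazine 5.03% of genes had an unadjusted p under 0.05 and the smallest adjusted p was 0.057. When only variably expressed genes were tested, atrazine had 4 genes called, all lower and all under 10 CPM (1190005I06Rik, Rftn2, Rab26 and Mospd2, at -3.35 to -2.10). Propazine then had 3 in place of 10, because its other called genes fell outside that set. The 2 called with atrazine without the vehicle library that stood apart were 1190005I06Rik and Rftn2. Of these 46 calls, 44 were lower than vehicle, and 43 of the 44 lay below every vehicle library. By the same test 238 other chemicals with 1 library at 10 μM had a median of 6.5 genes called (0 to 1244), and 83.3% of their calls were lower. A library of 1 compound gave wide intervals: only 66.5% to 70.1% of genes had one within 1 log2 unit of 0, so that a 2-fold change in the remaining genes could have been missed.

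Most of these calls were in scarce transcripts. The 46 calls had a median level of 4.49 CPM against 25.2 CPM for all genes, 29 were under 10 CPM, and 28 were more than 2 log2 units below vehicle. Ldoc1 was lower with ametryn (-3.51, interval -4.84 to -2.17, 2.15 CPM). With cyanazine the ribosomal protein gene Rps14 (-4.32), Zfp133-ps (-3.77) and Ccdc151 (-2.79) were lower. Rps14 has processed copies elsewhere in the genome that can take its reads, and it counted only 17.5 CPM in the counted libraries, so its value is uncertain. With metribuzin Pip5kl1 (-3.65), the helicase gene Mcm8 (-2.35) and the F-box gene Fbxl12 (-1.08, 15.9 CPM) were lower.

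All 7 genes called with hexazinone were lower. The 3 largest differences were in Aloxe3, an epidermal lipoxygenase (-3.92, 2.10 CPM), Zfp85os (-3.33) and 3110056K07Rik (-3.25). Its smallest p was that of a well measured gene, Uqcrq, singled out here for that reason. Uqcrq encodes a subunit of respiratory complex III, which oxidizes ubiquinol, and counted 87.2 ± 22.3 CPM (SD, n = 4). It was at -1.08 with hexazinone (interval -1.36 to -0.80, adjusted p = 4.559e-06). The other 7 triazines ran from -0.18 with metribuzin to 0.23 with propazine, inside the vehicle range of -0.32 to 0.29. Among the other chemicals at 10 μM, 19 libraries (7.25%) lay below the vehicle range and 1 was as low as hexazinone. The median over the 13 measured genes of complexes II and III was 0.12 with hexazinone.

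Prometon had 15 genes called, all lower, the most of the 8 compounds. In its library the median of 6 microglia markers (0.61) lay above every vehicle library (highest 0.48), and the part of this in the calls was not tested. By size the first were 2010106C02Rik (-5.03), the thymosin gene Tmsb15b2 (-4.54) and the ribosomal protein gene Rps19 (-3.79). Of these, Tmsb15b2 and Rps19 have close copies that can share their reads. For 2010106C02Rik prometon lay inside the vehicle range (lowest -5.07), and 3 libraries of the other chemicals were as low or lower. By p the first was 9330179D12Rik (-3.18). Cpt2 and C1qbp were picked from the other called genes for their mitochondrial role and not by size or p. Cpt2 (-2.39, 4.445 CPM) encodes the carnitine transferase of the inner mitochondrial membrane, and C1qbp (-0.76, 67.0 CPM) a mitochondrial matrix protein. For Cpt2, 16 libraries of the other chemicals (6.11%) lay below the vehicle range, and 1 was as low as prometon or lower. For C1qbp, 6 libraries of the other chemicals (2.29%) lay below the vehicle range. The 7 genes called with prometryn were also lower, led by Dear1 (-4.86), Nudt14 (-3.62) and Blvrb (-3.40), a biliverdin reductase. Egr1, an immediate early transcription factor induced by neuronal activity, was at -1.36 with prometryn (interval -1.93 to -0.79, adjusted p = 0.037, 22.8 CPM) and between -0.30 and 0.34 with the other compounds, where vehicle libraries ran from -0.66 to 0.61. Among the other chemicals at 10 μM, 33 libraries (12.6%) lay below the vehicle range for Egr1, and 4 were as low as prometryn or lower. Egr1 with prometryn was no longer called when only genes of at least 10 CPM were tested (adjusted p = 0.054).

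Only 2 genes were called with more than 1 compound, in both cases prometon and prometryn, which share their isopropylamino groups. Cdc123, a factor for assembly of the translation initiation complex, was at -2.14 with prometon (-2.72 to -1.55, adjusted p = 1.258e-05) and -1.36 with prometryn (-1.95 to -0.78, adjusted p = 0.043, and 0.054 with genes of at least 10 CPM), and between -0.26 and 0.54 with the other 6. Propazine, which has the same pair of isopropylamino groups, was at -0.23. Blvrb was at -3.36 and -3.40 in prometon and prometryn and at -0.06 in propazine. Among the other chemicals at 10 μM, 35 libraries (13.4%) fell below the vehicle range for Cdc123 and 11 (4.2%) for Blvrb.

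Propazine had 10 calls and the only 2 that were higher than vehicle. H2-T9, a class I histocompatibility gene of a family with near-identical members, was 3.03 higher (interval 1.75 to 4.32, 1.97 CPM) and is uncertain for that reason, and Tmem64 was 0.63 higher (0.37 to 0.89, 38.1 CPM). Its lower genes were led by Atp5k, Mir6369 (-3.95) and Fis1 (-1.17, 44.0 CPM), a receptor of the mitochondrial fission machinery. Atp5k with propazine was no longer called with a variance trend (adjusted p = 0.062) or with length and GC trends removed (adjusted p = 0.069). Fis1 with propazine lay below the vehicle range (-0.60 to 0.59), and 1 library of the other chemicals lay below that range. For the scarce Mir6369 (2.67 CPM), 16 libraries of the other chemicals (6.11%) lay below the vehicle range, and 7 were as low as propazine or lower.

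**Figure D3:**
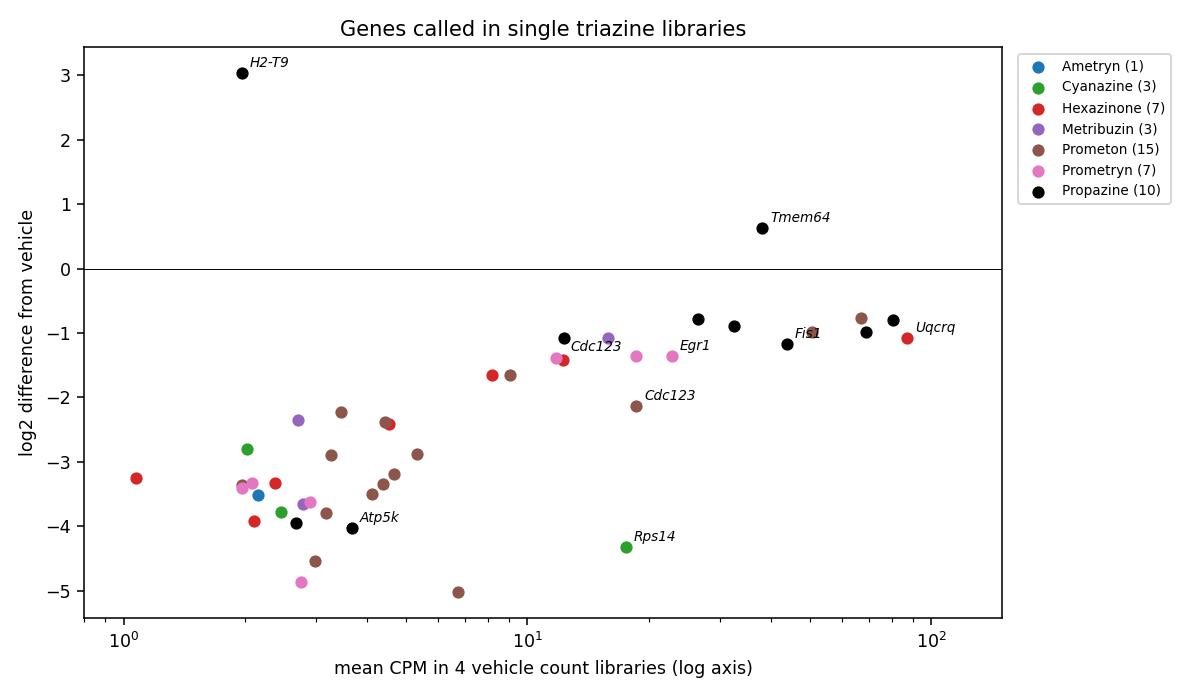
Genes called in single triazine libraries by their level. The horizontal axis is the mean CPM in 4 counted vehicle libraries on a log axis and the vertical axis the log2 difference from vehicle; each point is 1 call, coloured by compound, with the number of calls in parentheses. Of 46 calls 44 lie below 0, and differences beyond 2 log2 units are mostly under 10 CPM.

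Compounds were then compared with one another at the same dose and time, in 28 pairs with p adjusted over all genes and pairs. There were 56 calls (0.015% of 372512 gene and pair combinations) in 24 genes, with at least 1 call in 23 pairs and none in 5. In all 56 the lower library of the pair lay below every vehicle library, and 52 were in genes already called in a compound against vehicle. Uqcrq set hexazinone apart from 5 compounds, and Cdc123 set prometon apart from 4. The median half-width of the interval of a difference between a pair was 0.715 log2 units.

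For pairs that differ by a single change, few genes passed. Ametryn and atrazine, methylthio against chlorine, differed in Ndufa6, a subunit of respiratory complex I (2.04 higher with ametryn, interval 1.22 to 2.86, 34.8 CPM). They also differed in Mospd2 (3.28 higher with ametryn, 2.04 to 4.52, 5.64 CPM). Prometryn and propazine, the same exchange with isopropylamino groups on both sides, differed in 0610039K10Rik (-3.59, -4.96 to -2.23), so that no gene was called in both pairs. Atrazine and propazine, which differ in 1 alkyl group, differed in Pan2 (1.61, 0.97 to 2.26, 12.3 CPM) and Gramd3 (3.93, 2.41 to 5.45, 1.97 CPM). Ametryn and prometryn, the same change in the methylthio series, differed in Dear1 (5.26, 2.75 CPM) and 0610039K10Rik (3.94, 2.08 CPM). Both were low with prometryn against vehicle (-4.86 and -3.33) and set it apart in 4 and 6 pairs, so they were not particular to this change. Prometon differed from propazine in 4 genes and from prometryn in 5. Atrazine and cyanazine, which differ by the nitrile, had no gene called, with a smallest adjusted p of 0.109. That does not show that they act alike, since only 84.2% of genes had an interval within 2 log2 units of 0.

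The 4 compounds that combine chlorine or methylthio with the pair of alkyl patterns allowed each change to be averaged. Methylthio against chlorine called 3 genes (0.0225%). Grem1, a secreted antagonist of bone morphogenetic proteins, was 3.87 lower with methylthio (interval -5.27 to -2.48, adjusted p = 0.0125). It was at -3.02 with ametryn and -2.41 with prometryn, against 1.02 with atrazine and 1.30 with propazine, at a level of 1.34 CPM. Mre11a, a nuclease of DNA break repair, was 2.34 lower (-3.29 to -1.39, adjusted p = 0.039, 2.68 CPM). The third gene, 2010107E04Rik, was better measured (49.03 CPM) and 1.27 higher with methylthio (0.76 to 1.79, adjusted p = 0.039). It was at 0.44 with ametryn and 0.24 with prometryn, and at -0.89 with atrazine and -0.98 with propazine. The methoxy compound prometon was at 0.43 for this gene, 0.72 for Grem1 and -0.15 for Mre11a. Cyanazine, which also carries chlorine, was at -0.38 for 2010107E04Rik, 0.14 for Grem1 and 0.46 for Mre11a. Isopropyl against ethyl called none (0%), with 668 genes at an unadjusted p under 0.05. The smallest adjusted p there was 0.076, for 0610039K10Rik (-2.36) and Gramd3 (-2.61), and both passed when only variably expressed genes were tested (adjusted p = 0.028). For 0610039K10Rik prometryn alone was low (-3.33), with propazine at 0.26, ametryn at 0.61 and atrazine at 1.04. Gramd3 was at -2.17 with propazine and -0.70 with prometryn, against 0.58 with ametryn and 1.76 with atrazine. Prometon, which also has isopropylamino groups on both sides, was at 0.42 and -0.60 for these genes.

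The profiles of the 8 compounds had little in common as a whole. Over variably expressed genes, Spearman correlations between pairs ran from -0.079 for atrazine and ametryn to 0.056 for propazine and prometon, with a median of 0.019. Pairs of other chemicals with 1 library at 10 μM had a median of 0.0066, with 95% of them under 0.0606, and pairs of vehicle libraries had a median of 0.022. These are descriptions across genes, which are not independent, in libraries from 1 table. Values went with library numbers: other chemicals whose numbers lay within 4 of each other had a median of -0.072, and those further apart 0.0072. Ametryn and atrazine had adjacent numbers, and propazine and prometon numbers 4 apart, although the latter pair had the highest correlation of the class (0.056). For all 8 compounds the chemical of the screen with the closest profile lay outside the class, where there were far more candidates. For metribuzin it was fenamidone at 10 μM (0.193, against 0.047 with propazine, its closest triazine). Fenamidone was also the closest to propazine (0.1385, against 0.056 with prometon), so this likeness was not particular to metribuzin.

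**Figure D4:**
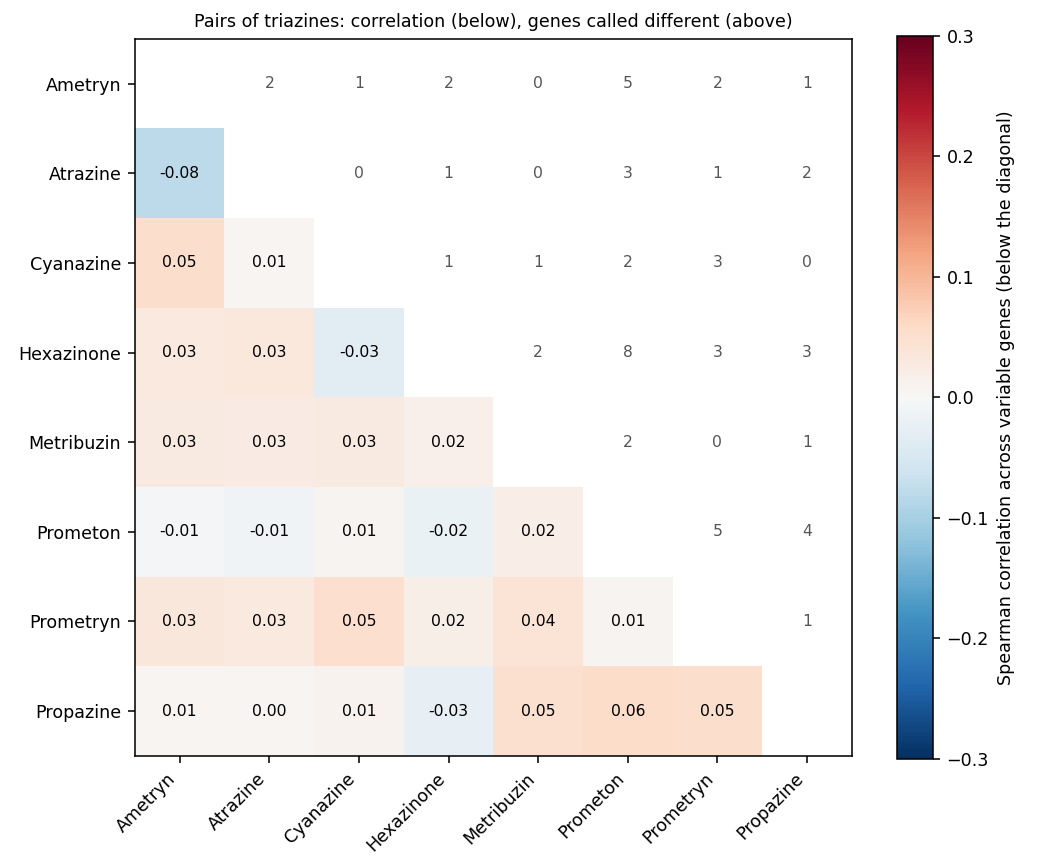
Pairs of triazines. Below the diagonal, cells give the Spearman correlation of 2 compounds across variably expressed genes, with colour from -0.3 to 0.3; above it, cells give the number of genes called different between them. Correlations run from -0.079 to 0.056 and calls from 0 to 8.

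Compared with 8 other herbicides of photosystem II at 10 μM (diuron, linuron, fluometuron and tebuthiuron, bromacil and terbacil, propanil and bentazone), the triazines differed in no gene (0%; 690 at an unadjusted p under 0.05, smallest adjusted p = 0.246). With bromoxynil, another herbicide of this kind that stood among the other chemicals, as a ninth compound there were again 0 genes called (699 at an unadjusted p under 0.05, smallest adjusted p = 0.282). The 8 herbicides differed from vehicle in no gene either (988 at an unadjusted p under 0.05). Intervals of the difference between the herbicide groups lay within 1 log2 unit of 0 for 93.6% of genes. A miss of the threshold at this size does not show that the groups act alike.

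Gene lists that fit the known biology of the class were read by counts and medians. Of the genes measured on 29 lists (19 of pathways and 10 of cell type markers), none was called over the 8 compounds, as for all genes. Genes of the aryl hydrocarbon receptor pathway, which senses planar aromatic compounds, showed no called member: the median of 10 measured genes was 0.02. Cyp1a1, its main cytochrome target, was 0.44 higher (-0.24 to 1.11) with values from -0.50 with cyanazine to 1.28 with metribuzin at 1.04 CPM. Cyp1b1 (-0.01, -0.25 to 0.22), the repressor gene Ahrr (-0.04, -0.52 to 0.44) and Tiparp (0.07, -0.10 to 0.25) had intervals that took in 0. On the list of steroid synthesis and receptors (12 of 20 genes measured, median 0.02), Star, which carries cholesterol into mitochondria, differed by 0.09 (-0.12 to 0.30). The aromatase gene Cyp19a1, the tyrosine hydroxylase gene Th and the steroidogenic regulator Nr5a1 had no row in the table used. Crh, the peptide that starts the stress axis, differed by -0.53 (-1.23 to 0.17) and was scattered, from -2.51 with metribuzin to 1.41 with cyanazine, at 1.38 CPM.

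The phosphodiesterase genes, which break down cyclic nucleotides, had a median of 0.03 over 15 genes, with 3 at an unadjusted p under 0.05, all higher. At that p 411 of all 13304 genes were higher, and the p53 list also had 3 such genes of 13. Pde3a was 0.39 higher (0.03 to 0.75, adjusted p = 0.706). Across the 25 immediate early genes the median difference was -0.02, and Fos (-0.03, -0.54 to 0.49) and Npas4 (-0.05, -0.51 to 0.40) lay near 0. The 8 measured genes of catecholamine handling had a median of -0.03. Complex I of the respiratory chain had a median of 0.03 over 35 genes, complexes II and III of 0.02 over 13, and targets of the antioxidant regulator NRF2 of 0.03 over 18. Lists of stress responses gave 0.0097 for ATF4 (16 genes), -0.0004 for chaperones (13 genes) and 0.09 for p53 (13 genes).

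A few lists leaned to one side. All 16 genes of hypoxia and glycolysis and all 13 of the p53 list had a class difference above 0, against 6588 of all 13304 genes. So did 16 of the 19 genes of cholesterol synthesis, with a median of 0.06 and none at an unadjusted p under 0.05; over the other chemicals at 10 μM the median of that list against vehicle was 0.08. The hypoxia list had a median of 0.19, and 5 of its genes had an unadjusted p under 0.05, and over the other chemicals its median was 0.05. Hk2, a hexokinase that starts glycolysis, was 0.70 higher (0.12 to 1.27, adjusted p = 0.649), with its largest values in prometon (1.65) and propazine (1.21). The median of the list was 0.46 with prometryn and with propazine, 0.30 with prometon, 0.20 with ametryn and -0.06 with hexazinone. All were inside the range of the vehicle libraries for this list, -0.70 to 0.58. The medians of the p53 list, 0.02 with ametryn to 0.17 with metribuzin, were also inside its vehicle range (-0.42 to 0.21). Over the other chemicals its median was 0.02. Genes of a list are not independent, and these counts were not tested. Of the 18 potassium channel genes 14 lay below 0, with a median of -0.09 and 4 at an unadjusted p under 0.05; cyanazine (-0.24) lay below the vehicle range for that list (-0.17 to 0.24). The other chemicals at 10 μM had a median of -0.08 on the potassium channel list, and the median difference of triazines from them was 0.0073.

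The remaining medians were near 0: -0.02 for CREB-regulated and secreted factors, 0.02 for GABA genes, 0.07 for ionotropic glutamate receptors, 0.07 for thyroid hormone genes and -0.02 for synaptic vesicle genes. Among cell type markers the class medians were 0.006 for neurons, 0.09 for astrocytes and radial glia, 0.03 for the oligodendrocyte lineage, -0.06 for microglia, 0.07 for endothelium, 0.03 for mural cells and fibroblasts, 0.11 for choroid plexus and ependyma, 0.08 for interneurons and 0.13 for cycling cells; blood markers had no row in the table used. Over the 28 lists with measured genes, 7 of 224 medians by compound lay outside the range of the vehicle libraries, and 21 lists had none outside. Beside the 4 given above, these were prometon on steroid synthesis and receptors (0.30, highest vehicle 0.23), hexazinone on the phosphodiesterases (0.154, highest vehicle 0.152) and propazine on 3 endothelium markers (1.03, highest vehicle 0.91).

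**Figure D5:**
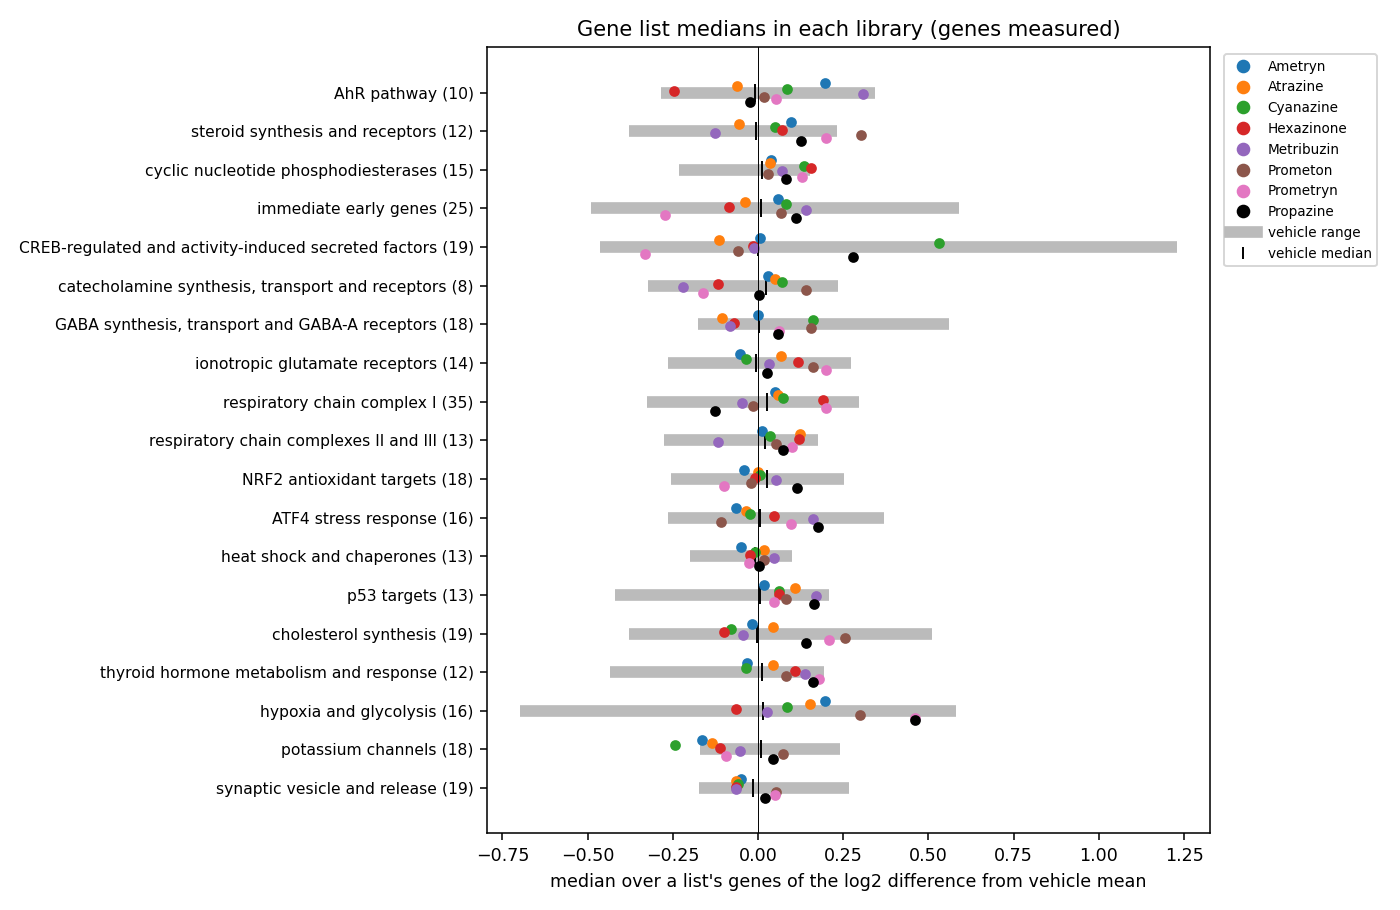
Medians of pathway lists in each triazine library. The horizontal axis is the median over the genes of a list of their log2 difference from the vehicle mean; coloured points are the 8 compounds, grey bars span the 49 vehicle libraries, ticks mark their median, and the number of genes measured is in parentheses. All but 3 of the points lie inside the grey bars.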

How the data were processed

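Cultured cortical neurons exposed for 24 h were sequenced from polyadenylated RNA with an unstranded kit, so that overlapping genes on opposite strands cannot be told apart. The authors aligned reads to mm9 with TopHat, summarized them over RefSeq exons as RPKM, dropped short genes and those without reads in more than a small share of samples, and took log10 values that were quantile-normalized, centred on each gene's median and freed of culture and sequencing batch effects by a mixed model. These deposited log10 values (13304 genes) give deviations and no levels; the labels name no batches, and the depth of these libraries is unknown. A second deposited table holds read counts for 4 vehicle libraries, used only for levels as CPM of the library total; its columns match the vehicle group but no single sample. Gene symbols were matched to GENCODE annotation of mm9 for position and length.

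Values were divided by the log10 of 2 and analysed with limma 3.58.1 in R 4.3.3 with moderated variances and no trend, since the centred mean carries no level. Benjamini-Hochberg adjustment ran over all genes (for pairs, over all genes and 28 pairs) at 0.05. Triazines were compared with vehicle, with other chemicals at 10 μM (each as the median of its libraries) and with other photosystem II herbicides; single compounds, pairs and the averaged structural contrasts came from 1 fit with 9 groups, in which vehicle libraries gave the spread. Named genes were the called genes, or failing those the 5 per direction of smallest p with all 8 libraries on one side of the vehicle median, the 3 largest called differences per direction in each compound, pair or contrast, and a short set of genes for the known biology. The calling script was tested on simulated data. Members, lists and rules were chosen with earlier results of these data known. With prometon, 9330179D12Rik, Cpt2 and C1qbp were named outside these rules.

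Alternatives were a variance trend, robust variances, variably expressed genes only (SD over 0.1 on the log10 scale), at least 1 CPM, a threshold of 0.01, library medians set to 0, the 6 dialkylamino triazines, and each compound left out. Chosen after seeing the data were the removal of the vehicle library that stood apart, at least 10 CPM, bromoxynil as a further photosystem II herbicide, and removal of trends in exon length and GC content (splines with 4 degrees of freedom). No sample name in the labels gave simazine. Calls per compound in the other chemicals were counted as a background. The 95% intervals cover the spread between libraries as modelled.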

Additional observations from a re-analysis of the deposited data

Results flagged for a closer look

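In 69 sets of 8 values, 1 per triazine (genes described across the 8 compounds, distances and list medians; genes named only as called in 1 compound or pair were left out), a compound was sought whose gap to its nearest neighbour, divided by the range of the 8, exceeded Dixon's critical value. There were 8 such sets. Chance gives about 1 in 20 for independent sets chosen beforehand. As Sst, Uqcrq and Egr1 were described for values of this kind, and the sets share libraries, the count cannot be set against that rate. Rin1 with hexazinone was at 1.17 while the others ran from 0.34 to 0.66 (gap ratio 0.619). Egr1 with prometryn was at -1.36 while the others ran from -0.30 to 0.34 (gap ratio 0.619). Sst with metribuzin was at -0.76 while the others ran from 0.24 to 0.84 (gap ratio 0.623). Uqcrq with hexazinone was at -1.08 while the others ran from -0.18 to 0.23 (gap ratio 0.683). Bdnf, a neurotrophin gene, was at -1.05 with prometryn while the others ran from -0.35 to 0.26 (gap ratio 0.531). The median of the genes of respiratory complexes II and III was -0.12 with metribuzin and 0.01 to 0.12 with the others (gap ratio 0.536). The median of 3 endothelium markers was 1.03 with propazine and -0.20 to 0.35 with the others (gap ratio 0.553), above the highest vehicle library (0.91). The median of 11 markers of mural cells and fibroblasts was 0.54 with metribuzin and -0.14 to 0.15 with the others (gap ratio 0.57), inside the vehicle range (-0.84 to 0.58).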

How the results depend on the processing

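Against vehicle, the class had 0 genes called in most settings, 2 with the 6 dialkylamino triazines (Sst and Atp5k, the latter at -2.14, adjusted p = 0.043) and 0 to 1 with a compound left out (Sst without metribuzin); members of the lists called were 1 and 0 to 1 in the same settings. Against other chemicals the 1 call became 0 at 10 CPM, and 0 to 1 with a compound left out. The 46 calls in single compounds became 19 at a threshold of 0.01 and 14 at 10 CPM, and the 56 calls in pairs became 18 at 0.01. At 10 CPM only 17 of the 46 could be tested, and 3 of these were lost. Methylthio against chlorine became 0 at 0.01, and isopropyl against ethyl became 2 with variably expressed genes, where atrazine had 4 calls in place of 0 and propazine 3 in place of 10. Of the 46 single calls, 33 were in variably expressed genes and 0 of these were lost. Without the vehicle library that stood apart, all 46 single calls remained in a total of 54, with 2 for atrazine; with the trend or the length and GC correction, Atp5k with propazine was lost (adjusted p = 0.062 and 0.069). The difference from other photosystem II herbicides stayed at 0 genes, also with bromoxynil added, and that of distances at 0.0009 to 0.0076 (permutation p 0.460 to 1) with a compound left out. No direction of a called result was reversed. No paired analysis was possible because the groups share no replicate numbers and each triazine has 1 library. The scarcity of many called transcripts and the single library per compound limit what these values can show.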
